A study of Mus musculus with 9 samples.

Results

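Tail skin with acute lymphedema was compared with normal tail skin of female hairless SKH-1 mice on cDNA arrays, with attention to the genes that were lower and to metabolism, translation, cell division and transcription factors. The members were the 3 arrays titled for lymphedema tail skin and the 3 titled for normal tail skin, 6 of the 9 arrays of the series. Each array held RNA from the distal tail of a pool of 3 mice, taken on day 14 of observation from animals studied at 3 weeks of age, against 1 common reference of whole-embryo RNA from late gestation. In the lymphedema group the tail skin was cut around its circumference and the lymphatic trunks, made visible with methylene blue, were cauterised. Normal mice had no surgery, so the incision and the dye also separate these 2 groups. The other 3 arrays held sham skin, which had the incision and the dye without cautery. Sham values are given beside the main results, and a sham difference shares its normal arrays with the lymphedema comparison.

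Lymph collects fluid, proteins and immune cells from the skin, and when its trunks are cut the tissue swells and fills with inflammatory cells. Skin is a layered organ in which basal keratinocytes divide and mature into a lipid-sealed barrier, while hair follicles and sebaceous glands make keratins and large amounts of fatty acids. In whole tissue such as this, fewer cells of a type and less RNA per cell cannot be told apart.

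A level below is the log2 ratio of tail skin over embryo reference with the median of the array at 0, and a difference is the mean of the 3 lymphedema arrays minus the mean of the 3 normal arrays. The table held 42624 features (spotted cDNA clones), of which 30702 had a value on all 9 arrays, and these gave 8644 named genes. By limma, 245 genes were higher in lymphedema at an adjusted p under 0.05, which is 2.83% of those tested, and 52 were lower, which is 0.602%. Over features, 707 were higher (2.3%) and 195 lower (0.635%). The median difference over all 8644 genes was 0.10. The reference served as a check of the direction of the ratio. On each array 28 to 30 of 30 genes typical of the embryo lay below the median and 14 to 15 of 16 genes typical of adult skin lay above it. Skeletal muscle markers lay far below the reference in every group, with list medians of −4.73, −4.95 and −5.01 on the normal arrays and −4.47, −5.19 and −4.2 on the lymphedema arrays.

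The values moved with the order of the features in the table. Along 48 blocks of consecutive feature numbers the median of a block ran from −0.55 to 0.64 on the normal arrays and from −0.59 to 1.26 on the lymphedema arrays. Of the features called higher, 177 lay in the first 24 blocks and 530 in the last 24, while 132 and 63 of those called lower did. Where 1 gene was spotted in both parts of the list at least 24 blocks apart, the later clone gave the higher difference in 1397 of 1721 genes, by a median of 0.31. Each value was therefore also centred on its block and array, an alternative chosen after the values were seen and called the within-block value below. With it the later clone was higher in 750 of the 1721 genes, 378 genes passed as higher (4.37%) and 136 as lower (1.57%), and the median standard error of a gene fell from 0.218 to 0.168. Of the genes called on the uncorrected values, 175 of 245 and 43 of 52 also passed within blocks, and the median difference of those called higher went from 1.04 to 0.88, against −1.07 to −1.01 for those called lower. The place of a block on the slide is not given in the sources used here.

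**Figure D1:**
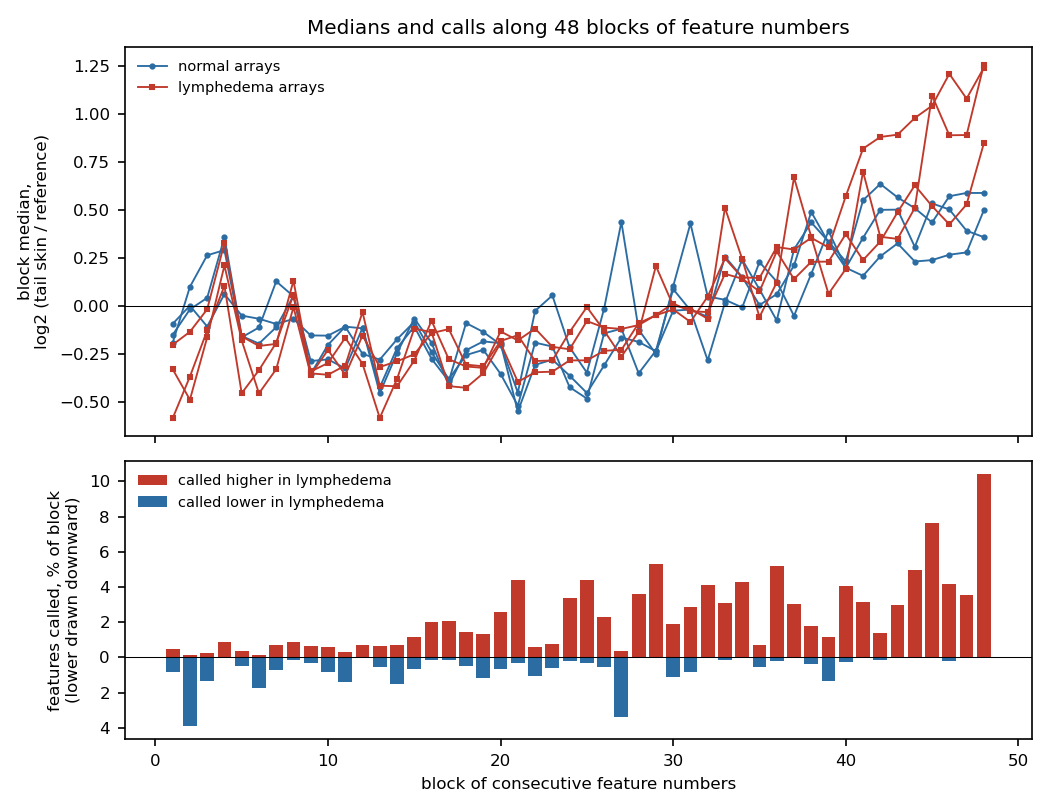
Top, median level (log2 tail skin over reference, array median at 0) in each of 48 blocks of consecutive feature numbers, 1 line per normal or lymphedema array. Bottom, features called higher (up) or lower (down) in lymphedema by limma as a percent of the features tested in the block. The medians climb towards the last blocks on all 6 arrays, up to 1.26 on a lymphedema array, and 530 of 707 features called higher lie in the last 24 blocks.

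A second pattern concerned the empty cells. All 3 normal arrays and lymphedema array 1 shared a set of features that were empty on the other 5 arrays. With arrays divided that way as a block, the difference is that of lymphedema array 1 alone from the normal mean. The median standard error was then 0.311 against 0.218, and 1 array is too few to call genes by. For the 245 higher genes the median difference from the normal mean was 1.07 on lymphedema array 1 and 1.05 on the other 2. The calls below are those without that block, and the values of single arrays, lymphedema array 1 first, are given for most of the genes named. For the 52 lower genes the median difference from the normal mean was −0.96 on lymphedema array 1 and −1.12 on the other 2. The called genes were chosen with lymphedema array 1 among the 3 arrays. These medians therefore do not test whether the calls depend on the pattern of empty cells.

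The lower genes mostly stood above the median of the array in normal skin, with Ocln near it and Pcsk6, a proprotein convertase, below it at a mean of −0.56. Their median level was 1.13 in normal skin, 0.02 in lymphedema and 0.67 in sham skin. Of the 52, 32 differed by at least 2-fold, and their normal and lymphedema arrays did not overlap for any of them, as was also so for 33.8% of all genes tested. Only 7 of the 52 were read by 2 or more clones, and in these the clones had the same sign. Among the genes called higher the median levels were −0.63 in normal skin, 0.52 in lymphedema and −0.05 in sham skin. The spread of an array (scaled median absolute deviation) was 0.90, 0.85 and 0.88 in normal and 0.83, 0.78 and 0.72 in lymphedema skin. In sham skin it was 0.99, 0.91 and 0.79. With arrays scaled to 1 spread, 314 genes passed as higher and 55 as lower. The part of the narrower spread in these levels was not tested.

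**Figure D2:**
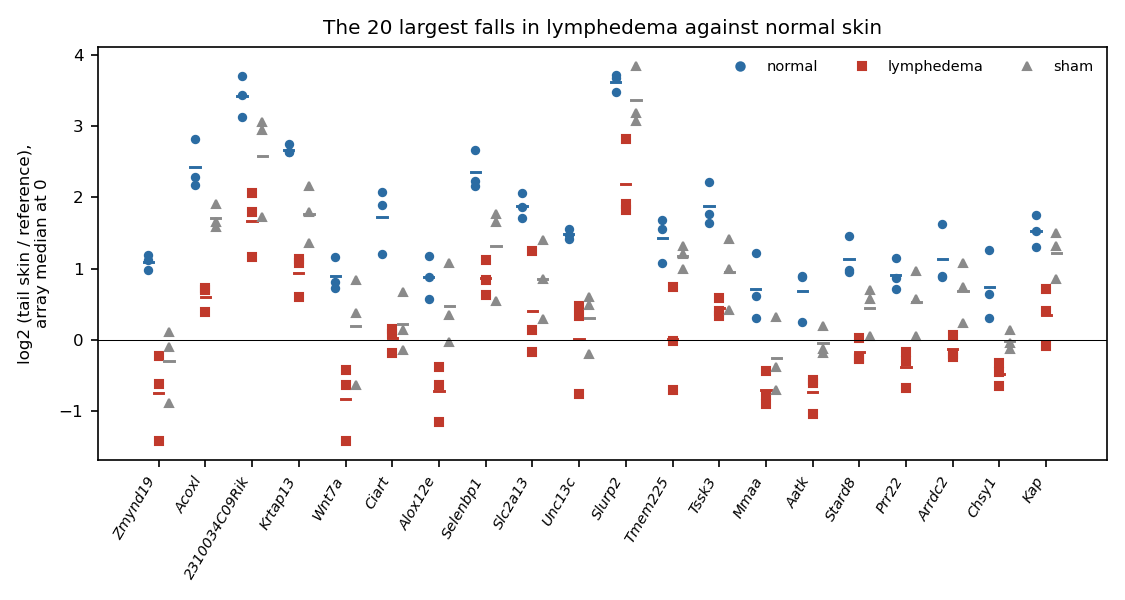
Level (log2 tail skin over reference, array median at 0) of the 20 genes with the largest falls, 1 point per array for normal, lymphedema and sham skin, with a bar at each group mean. Normal and lymphedema points do not overlap for any of the 20, and sham points lie between them or beside the normal points for most.

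The falls described below are a part of the 52 lower genes, so their themes do not sum up all 52. Among those left out are Ifng, Nanog, Tssk3, Txndc2, Oog3, Nlrp4b, GRIN2B, Pcp2 and Unc13c. Several of the falls were in enzymes that handle fatty acids. Acoxl, which encodes a relative of the peroxisomal acyl-CoA oxidases, stood at 2.29, 2.83 and 2.18 in normal skin, 0.73, 0.39 and 0.70 in lymphedema and 1.91, 1.66 and 1.58 in sham skin. Every lymphedema array lay below every normal and sham array. The difference was −1.83 with a standard error of 0.208, a 3.55-fold fall (limma adjusted p = 0.00267), and −1.75 within blocks. Acox3, a peroxisomal oxidase of branched fatty acids, stood at 0.71, 0.84 and 1.11 in normal and 0.06, −0.07 and −0.26 in lymphedema skin, with sham skin at 1.04, 0.57 and 1.00 (difference −0.97 ± 0.194 SE, limma adjusted p = 0.0275). Its sham arrays overlapped the normal arrays and its lymphedema arrays lay apart from both. Ehhadh, the bifunctional enzyme of the next peroxisomal steps, went the other way, from −1.39, −1.22 and −1.15 to −0.25, 0.04 and 0.34, with sham skin at −0.98, −0.95 and 0.17 (difference 1.29 ± 0.29 SE, limma adjusted p = 0.0379). These 3 were the only calls among the 13 measured peroxisomal lipid oxidation genes, whose median was 0.12 and 0.02 within blocks, and none of 17 genes of mitochondrial fatty acid oxidation passed.

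Genes of fatty acid and triglyceride synthesis had the lowest median of the 49 lists of genes by theme. It was −0.47 over 19 genes, and −0.38 within blocks, against 0.10 over all genes. Each lymphedema array had a list median below the normal mean, at −0.34, −0.38 and −0.40, while the sham arrays had −0.04, −0.03 and −0.45. Of the 19 genes 4 had a positive difference, 2 passed as lower and none as higher. Elovl6, which lengthens palmitate, stood at 2.29, 1.82 and 1.74 in normal and 1.24, 1.18 and 0.50 in lymphedema skin, with sham skin at 1.23, 1.63 and 1.39 (difference −0.98 ± 0.238 SE, limma adjusted p = 0.0488). Dgat2, which makes the last bond of triglycerides, stood at 0.81, 0.74 and 0.27 and at −0.28, −0.39 and −0.14, with sham skin at 0.38, 0.29 and 0.15 (difference −0.88 ± 0.187 SE, limma adjusted p = 0.0339). Both lost their call within blocks, at limma adjusted p of 0.105 and 0.0575. Gpam, which adds the first acyl chain to glycerol phosphate, passed only within blocks, with a difference of −1.12 (limma adjusted p = 0.0106) against −0.84 before (0.0918). Fatty acid synthase Fasn had −0.56 and malic enzyme Me1 −0.62, neither past the threshold. The 13 genes of cholesterol synthesis had a median of −0.03 with none past the threshold, from −0.50 for Dhcr7 to 0.54 for Idi1. Sebaceous glands are a lipid-making cell type of this skin. The median of 6 sebaceous markers stood at 2.17, 1.85 and 2.26 in normal, 1.75, 1.86 and 1.48 in lymphedema and 2.30, 2.16 and 1.41 in sham skin, with 1 lymphedema array inside the normal range. None of the 6 passed, and the part of these cells in the lower lipid genes was not tested.

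The lipids of the barrier gave fewer calls. Alox12e, an epidermal 12-lipoxygenase, stood at 1.18, 0.57 and 0.89 in normal, −0.38, −1.16 and −0.64 in lymphedema and 1.08, −0.03 and 0.35 in sham skin (difference −1.61 ± 0.297 SE, limma adjusted p = 0.0267). Lymphedema arrays lay below all others. Alox12b, an epidermal lipoxygenase needed for the barrier, had −0.86 without passing (0.0589). Alox5ap, the partner that 5-lipoxygenase needs to make leukotrienes in white blood cells, stood at −0.86, −0.70 and −0.72 in normal and 0.53, 0.90 and 0.77 in lymphedema skin, with sham skin at −0.38, −0.60 and 0.74 (difference 1.5 ± 0.295 SE, limma adjusted p = 0.0275). Within 1 list of 17 eicosanoid genes the keratinocyte enzyme Alox12e thus fell while the leukocyte gene Alox5ap rose. Sphingolipid and barrier lipid genes had a median of −0.12 over 17 genes with none past the threshold.

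Products of the hair follicle and the maturing epidermis were split. Krtap13, a keratin-associated protein of the hair shaft, stood at 2.75, 2.63 and 2.64 in normal, 1.13, 1.08 and 0.61 in lymphedema and 1.79, 2.16 and 1.36 in sham skin. The 3 groups did not overlap, with sham skin between the others. The difference was −1.73 with a standard error of 0.225 (limma adjusted p = 0.00593), and −1.58 within blocks. Krtap3-3, of the same class, went from 5.38, 5.62 and 5.18 to 4.73, 4.60 and 4.71, with sham skin at 4.80, 4.79 and 4.55 (−0.71 ± 0.174 SE) and lost its call within blocks, where Krt36, a hair keratin, passed with −0.79. The list of hair keratins and their partners had no common direction. The median of the 18 measured genes was 0.20, 0.04 within blocks and −0.06 with quantile normalization, with single lymphedema arrays at 0.51, 0.12 and −0.33. The 10 hair follicle markers stood at list medians of 3.72, 2.67 and 3.36 in normal and 3.94, 4.04 and 3.59 in lymphedema skin. Slurp2, a small secreted protein of the epidermis, stood at 3.67, 3.72 and 3.48 in normal, 1.83, 1.91 and 2.82 in lymphedema and 3.07, 3.85 and 3.19 in sham skin (difference −1.44 ± 0.282 SE, limma adjusted p = 0.0275). Occludin (Ocln), a strand protein of tight junctions, stood at 0.40, 0.19 and 0.07 in normal, −0.86, −0.90 and −0.78 in lymphedema and −0.48, −0.32 and −0.06 in sham skin (difference −1.07 ± 0.175 SE, limma adjusted p = 0.0175). Its 3 lymphedema arrays lay close together and below every other array. Repetin (Rptn), a protein of the cornified envelope, went up instead, from 2.78, 2.69 and 2.53 to 3.74, 3.72 and 3.73, with sham skin at 3.55, 3.22 and 3.99 (difference 1.06 ± 0.203 SE, limma adjusted p = 0.0274). It was the only gene of the 28 of the cornified envelope list to pass, and the median of that list was 0.09. The 7 basal keratinocyte markers and the 12 of differentiating keratinocytes had no gene past the threshold, with medians of 0.28 and −0.04.

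Wnt genes changed in both directions. Wnt7a, a ligand made by the epidermis, stood at 0.73, 1.16 and 0.81 in normal, −0.43, −1.42 and −0.63 in lymphedema and −0.64, 0.38 and 0.83 in sham skin (difference −1.73 ± 0.357 SE, limma adjusted p = 0.0288). Wnt7b, its near relative, stood at 1.77, 1.41 and 1.54 in normal, 2.23, 2.84 and 2.96 in lymphedema and 2.73, 2.56 and 2.66 in sham skin (difference 1.10 ± 0.211 SE, limma adjusted p = 0.0275). For Wnt7b the sham arrays lay with the lymphedema arrays, and for Wnt7a they were spread from the normal to the lymphedema values. Ror2, a receptor for Wnt5a, went from −0.97, −1.0 and −0.96 to −0.31, 0.13 and −0.18, with sham skin at −0.41, −0.81 and −0.24 (difference 0.86 ± 0.195 SE, limma adjusted p = 0.0399). Ctnnbip1, an inhibitor of beta-catenin, went from 1.68, 1.94 and 1.79 to 0.94, 0.76 and 0.66 (difference −1.02 ± 0.211 SE, limma adjusted p = 0.0290), with sham skin at 1.88, 1.61 and 1.09. All 4 also passed within blocks. They were the calls among 25 Wnt genes, whose median was 0.05.

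Among regulators of transcription few genes passed. Ciart, a repressor in the circadian clock, stood at 1.21, 1.90 and 2.08 in normal, −0.18, 0.15 and 0.09 in lymphedema and 0.67, 0.14 and −0.14 in sham skin. Lymphedema and sham arrays overlapped and both lay below the normal arrays. The difference from normal was −1.71 with a standard error of 0.264 (limma adjusted p = 0.0137), the same within blocks. Of the 11 measured clock genes it was the only one to pass, and 2 had a positive difference. The others lay between −0.62 for the nuclear receptor Rora and 0.43 for Npas2, with the activator Arntl at −0.43, Nr1d2 at −0.35, Cry2 at −0.24 and Cry1 at −0.22. The list median was −0.22, with −0.49, −0.02 and −0.10 on the 3 lymphedema arrays.

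The start of Ciart holds the E-box letters that clock activators bind in many promoters, and it is shown for that reason. RefSeq promoter windows of mouse build GRCm38.p6 were taken from 250 bases before the start of a gene to 50 from the start on. CACGTG, which reads the same on both strands, occurs at least once in 7.15% of 32851 such windows. It occurs in at least 1 window of 33.3% of the clock genes (3 of 9), a share of genes and not of windows. The Ciart window holds 3 copies and that of Cry1 holds 1. Printed is chr3:95882209-95882428, minus strand, from 200 bases before the start, with the E-boxes in capitals; their first bases lie 116, 58 and 44 bases before the start. A match is a description of the letters and not a measured binding site.
Ciart: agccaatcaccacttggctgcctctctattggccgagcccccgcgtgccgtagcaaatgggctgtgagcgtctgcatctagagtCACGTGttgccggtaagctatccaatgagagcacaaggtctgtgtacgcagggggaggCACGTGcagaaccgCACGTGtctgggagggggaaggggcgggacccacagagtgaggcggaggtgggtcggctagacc

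Mycl, a member of the MYC family, fell from 1.76, 2.18 and 1.34 to 0.60, 0.51 and 0.99, with sham skin at 1.65, 1.21 and 1.47 (difference −1.06 ± 0.236 SE, limma adjusted p = 0.037), a call lost within blocks at 0.0566, and with its incomplete features averaged in the difference was −0.23. Tgif1, a homeobox repressor of TGF-beta targets, rose from −0.12, −0.14 and 0.00 to 1.20, 0.73 and 0.67, with sham skin at 0.56, 0.50 and 0.56 (difference 0.96 ± 0.18 SE, limma adjusted p = 0.0270), and to 0.79 within blocks. Irf7, which switches on interferon genes, stood at 0.13, −0.01 and 0.01 in normal, 1.83, 1.83 and 2.22 in lymphedema and 0.52, −0.07 and 0.62 in sham skin, a 3.78-fold rise (difference 1.92 ± 0.211 SE, limma adjusted p = 0.00256). It was the only one to pass among 21 IRF, STAT, NF-kappaB and C/EBP factors, whose median was 0.01. Klf13 and Ppard passed with 0.88 and 0.97 and lost their calls within blocks at 0.0669 and 0.0626. Mitf, the factor of pigment cells, had −0.67 and Tfeb, which drives lysosomal genes, −0.76, and both passed only within blocks, as did the estrogen receptor Esr1 at −0.62. None of 24 AP-1, Egr and Maf factors passed in either form.

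Central carbon metabolism lay on the higher side. On the array-centred values the 19 glycolysis genes had the highest median of the 49 lists, 0.47. Within blocks it was 0.36, below the 0.39 of the respiratory chain and ATP synthase. The list medians were 0.37, 0.66 and 0.33 on the 3 lymphedema arrays and 0.29, 0.08 and 0.27 on the sham arrays. Of the 19 differences 17 were positive. Over all genes 5355 of 8644 were positive. Pgk1, phosphoglycerate kinase, stood at −1.27, −1.12 and −1.03 in normal and −0.44, 0.20 and −0.44 in lymphedema skin, with sham skin at −0.80, −0.47 and −0.27 (difference 0.91 ± 0.217 SE, limma adjusted p = 0.0451). Tpi1, triosephosphate isomerase, stood at −0.60, −0.46 and −0.44 and at 0.34, 0.51 and 0.00, with sham skin at 0.00, −0.08 and −0.23 (difference 0.78 ± 0.179 SE, limma adjusted p = 0.0399), with its 4 clones between 0.21 and 1.13. These 2 enzymes act on either side of Gapdh in glycolysis and were the only genes of the list to pass. Gapdh was added within blocks at 0.69. Lactate dehydrogenase Ldha had 0.60 and the activator of glycolysis Pfkfb3 had 0.66 without passing. In the tricarboxylic acid cycle 20 of 21 differences were positive (median 0.31), with 0.16, 0.35 and 0.29 on the lymphedema arrays and 0.40, 0.19 and 0.13 on the sham arrays, of which the first lay above every lymphedema array. That median was 0.19 with arrays scaled to 1 spread and 0.08 with quantile normalization, which moved the median of all genes from 0.10 to −0.02. In this list Sdhd, a subunit of succinate dehydrogenase, and Mdh2, mitochondrial malate dehydrogenase, passed with 0.85 ± 0.17 SE and 0.69 ± 0.166 SE (limma adjusted p of 0.0279 and 0.0461). Sdhd stood at −1.36, −1.17 and −1.13 in normal, −0.32, −0.26 and −0.52 in lymphedema and −0.71, −0.63 and −0.96 in sham skin.

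Of 72 genes of the respiratory chain and ATP synthase, 67 were positive, with a median of 0.38 and 0.39 within blocks and with 0.32, 0.58 and 0.26 on the 3 lymphedema arrays. The sham arrays had list medians of 0.12, 0.20 and 0.04. In the limma fit 2 of the 72 passed, near the 2.83% of all genes, and 29 were higher at an unadjusted p under 0.05. Within blocks 13 of the 72 passed, against 4.37% of all genes. Cyc1, the cytochrome c1 of complex III, stood at 0.43, 0.07 and 0.02 in normal and 1.67, 1.25 and 0.99 in lymphedema skin, with sham skin at 1.09, 0.91 and 0.74 (difference 1.13 ± 0.212 SE, limma adjusted p = 0.0270). Atp5j2, a subunit of ATP synthase, stood at −1.44, −1.60 and −1.50 and at −0.68, −0.37 and −0.81, with sham skin at −1.39, −1.38 and −0.87 (difference 0.89 ± 0.196 SE, limma adjusted p = 0.0367). Lymphedema array 1 was above the normal arrays for both. The positive share was 31 of 34 for complex I, 8 of 9 for complex III, 12 of 13 for complex IV and 15 of 15 for ATP synthase.

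**Figure D3:**
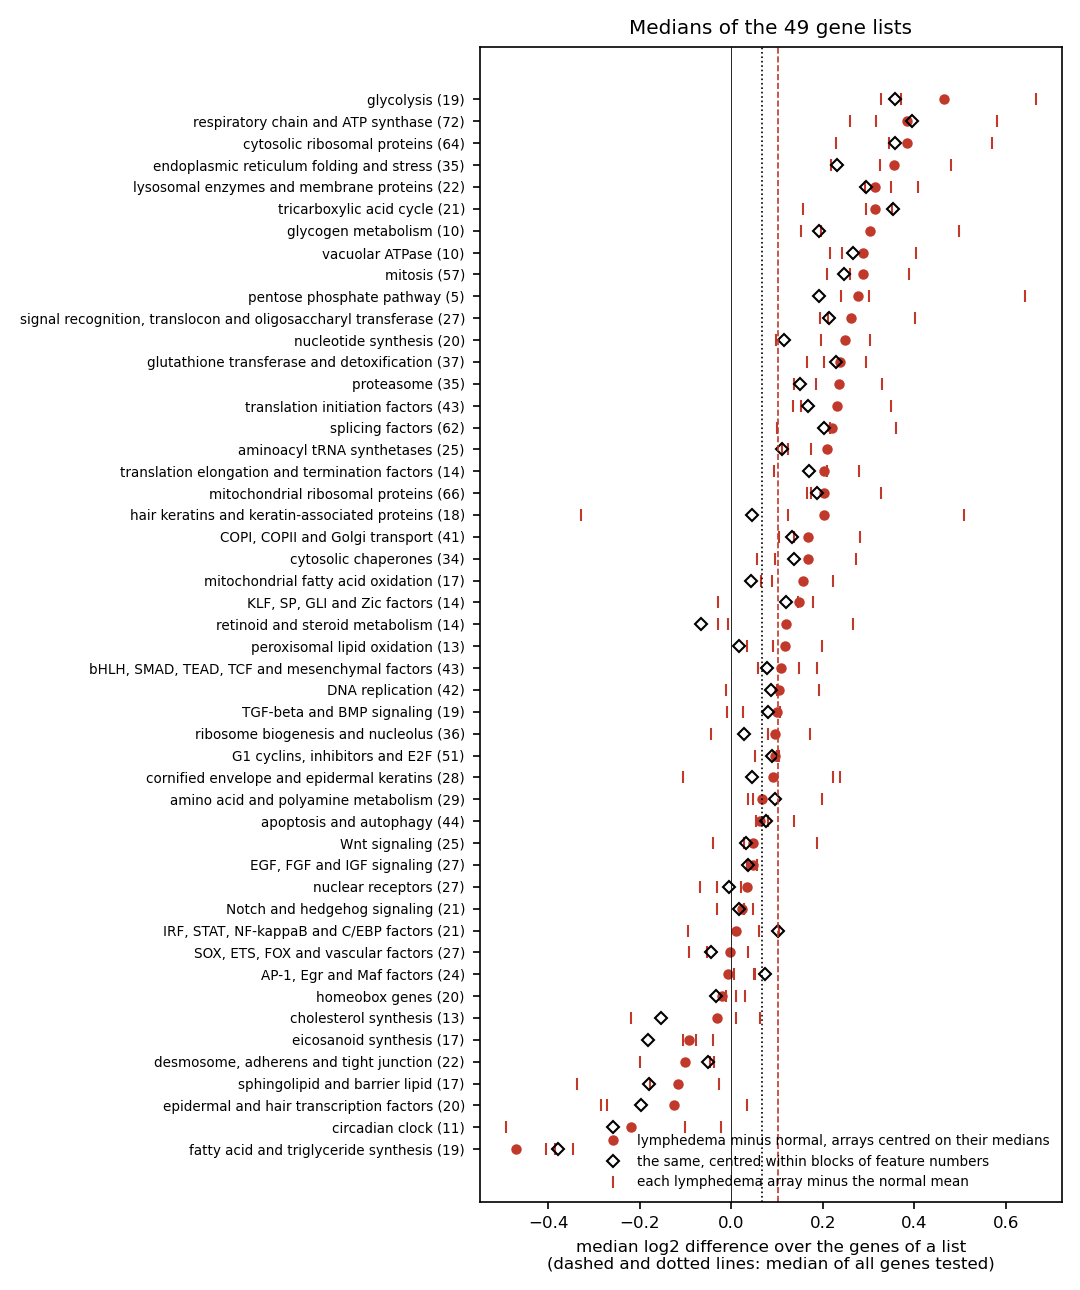
Median difference (log2, lymphedema minus normal) of the 49 gene lists by theme, with the number of measured genes in brackets. Filled points are array-centred values, open diamonds the values centred within blocks, ticks each lymphedema array minus the normal mean; the dashed and dotted lines are the medians of all genes for points and diamonds. Among the filled points glycolysis stands highest at 0.47 and fatty acid and triglyceride synthesis lowest at −0.47. All 3 ticks of each of these lists lie on the same side of 0 as its point.

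Smaller branches of metabolism had single calls. Pnp, purine nucleoside phosphorylase, went from −1.39, −1.07 and −0.38 to 0.94, 1.27 and 0.43, with sham skin at 0.18, 0.30 and 0.00 (difference 1.83 ± 0.276 SE, limma adjusted p = 0.0137), 1.19 within blocks. Nt5e, the ecto-enzyme CD73 that makes adenosine from AMP, stood at −0.37, −0.40 and −0.10 in normal, 1.79, 1.67 and 1.78 in lymphedema and 0.67, 0.14 and 0.61 in sham skin, a 4.11-fold rise (difference 2.04 ± 0.187 SE, limma adjusted p = 0.00139). The 3 lymphedema arrays of Nt5e lay close together, above all sham arrays. Sat1, the first enzyme of polyamine breakdown, went from 0.26, −0.15 and 0.26 to 1.44, 1.55 and 1.10, with sham skin at 0.93, 0.94 and 0.76 (difference 1.24 ± 0.189 SE, limma adjusted p = 0.0137). Gpx1, which reduces peroxides with glutathione, rose from −0.67, −0.67 and −0.71 to −0.06, 0.28 and 0.14, with sham skin at −0.21, −0.41 and −0.02 (difference 0.81 ± 0.172 SE, limma adjusted p = 0.0339), and Selenbp1, a selenium-binding protein, went the other way. Selenbp1 stood at 2.66, 2.23 and 2.17 in normal, 0.84, 1.13 and 0.63 in lymphedema and 1.65, 1.77 and 0.55 in sham skin (difference −1.49 ± 0.302 SE, limma adjusted p = 0.0288), and its 2 clones gave −1.5 and −1.47. Lysosomal genes had a median of 0.31 over 22 with none past the threshold, and 4 (Npc2, Cd63, Psap and Man2b1) passed within blocks.

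In translation all 64 measured cytosolic ribosomal protein genes had a positive difference, also within blocks, with a median of 0.38 (0.36 within blocks). The list median was 0.34, 0.57 and 0.23 on the lymphedema arrays and 0.27, 0.13 and −0.13 on the sham arrays. Only Rps7 and Rps12, both of the small subunit, passed, and 2 of 64 is near the 2.83% of all genes. Rps12 stood at 0.14, 0.07 and 0.12 in normal and 0.84, 1.29 and 0.68 in lymphedema skin, with sham skin at 0.52, 0.55 and 0.39 (difference 0.83 ± 0.186 SE, limma adjusted p = 0.0371), and Rps7 had 1.04 ± 0.246 SE (limma adjusted p = 0.0445). Clones of ribosomal protein genes can cross-hybridise to the many processed copies of these genes, so single members are uncertain. Other steps of protein synthesis had lower medians and almost no calls. Mitochondrial ribosomal proteins had 0.20 with 1 of 66 past the threshold (Mrpl1), initiation factors 0.23 with 0 of 43, aminoacyl tRNA synthetases 0.21 with 0 of 25 and ribosome biogenesis 0.10, the median of all genes, with 0 of 36.

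The 35 genes of folding and stress in the endoplasmic reticulum had a median of 0.36 with none past the threshold, and a lower median of 0.23 within blocks, where 5 passed against 4.37% of all genes. Lymphedema arrays had list medians of 0.32, 0.48 and 0.22 and sham arrays 0.39, 0.30 and 0.34, so the sham values lay inside the range of the lymphedema arrays. With quantile normalization the median was 0.18. The 5 were the protein disulfide isomerases Pdia3, Pdia4, Pdia6 and P4hb, at 0.51, 0.85, 0.50 and 0.61, and Xbp1, the transcription factor of the folding response, at 0.52. Disulfide isomerases form the bonds between cysteines of proteins bound for secretion. Of the transport machinery Tmed9, a cargo receptor between endoplasmic reticulum and Golgi, rose by 1.27 ± 0.239 SE on the log2 scale (limma adjusted p = 0.0270). Proteasome genes had a median of 0.24 with 31 of 35 positive and none past the threshold, and splicing factors 0.22 with 53 of 62 positive and none past it.

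**Figure D4:**
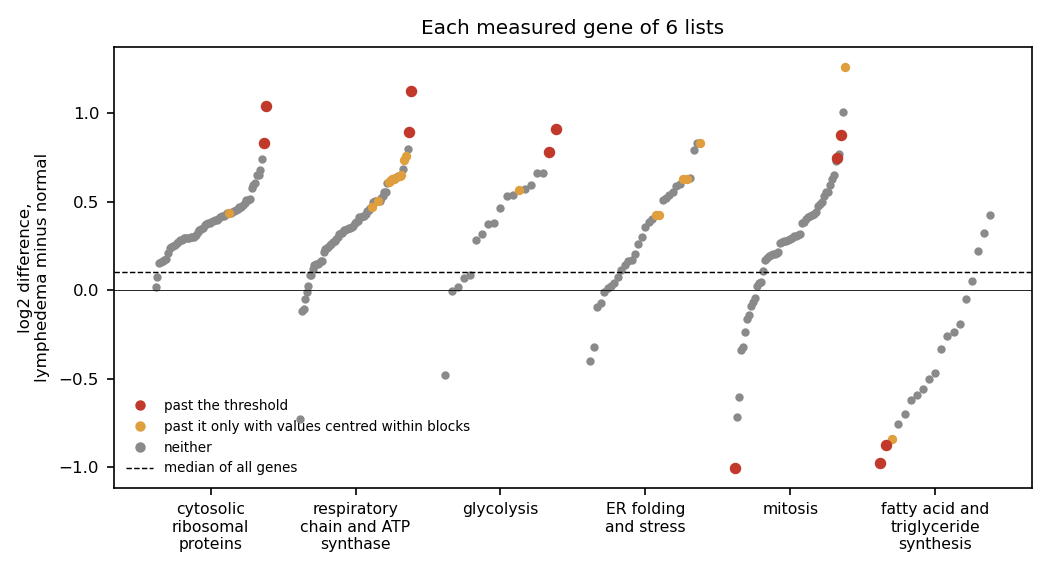
Difference (log2, lymphedema minus normal) of each measured gene of 6 lists, sorted within its list. Red points passed by limma, orange points passed only with values centred within blocks, and the dashed line is the median of all genes. All 64 ribosomal proteins lie above 0, and 4 of the 19 genes of fatty acid and triglyceride synthesis do.

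Of the genes of cell division, those of mitosis had a median above that of all genes, while those of DNA replication and the G1 phase lay close to it. Within blocks DNA replication had 0.087 and the G1 phase 0.089, against 0.068 over all genes. Of 57 genes of mitosis 46 were positive and 2 passed as higher, with a median of 0.29 (0.25 within blocks) and with 0.26, 0.39 and 0.21 on the lymphedema arrays against −0.03, −0.05 and 0.12 on the sham arrays. That median was 0.19 with arrays scaled to 1 spread and 0.10 with quantile normalization. Ccnb2, a cyclin B of the entry into mitosis, stood at −1.06, −1.32 and −1.05 in normal, −0.26, −0.15 and −0.38 in lymphedema and −0.78, −1.11 and −1.02 in sham skin (difference 0.88 ± 0.171 SE, limma adjusted p = 0.0275). Its sham arrays lay nearer to the normal arrays. Aurkb, a kinase of chromosome segregation, passed with 0.75 but had 0.11 within blocks (limma adjusted p = 0.759). Ccnf, an F-box cyclin of G2 phase, fell from 0.65, 0.73 and 0.89 to 0.12, −0.61 and −0.26, with sham skin at 0.35, 0.43 and 0.24 (difference −1.0 ± 0.2 SE, limma adjusted p = 0.0275). Genes of DNA replication had a median of 0.10, equal to that of all genes, with Gmnn, an inhibitor of licensing, as the 1 call among 42 (0.94, lost within blocks), and the 51 genes of the G1 phase had 0.10. In all these lists calls made up a share near that of all genes.

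Ccnb2 and Ccnf carried opposite differences, and both starts hold CCAAT boxes and the CHR letters TTTGAA that are typical of genes of G2 and mitosis, which is why they are shown. Windows of the same kind were searched for CCAAT on both strands. It occurs for 70.2% of mitosis genes (33 of 47) and 59.0% of DNA replication genes (23 of 39), against 37.4% of all windows. TTTGAA occurs for 59.6% (28 of 47) and 15.4% (6 of 39), against 17.9% of all windows. The list shares count a gene once if any of its windows matches, so they are not the same measure as the share of all windows. The letters of both motifs on the printed strand are in capitals. The sequences are chr9:70421535-70421754 for Ccnb2 and chr17:24251390-24251609 for Ccnf, both on the minus strand, from 200 bases before the start.
Ccnb2: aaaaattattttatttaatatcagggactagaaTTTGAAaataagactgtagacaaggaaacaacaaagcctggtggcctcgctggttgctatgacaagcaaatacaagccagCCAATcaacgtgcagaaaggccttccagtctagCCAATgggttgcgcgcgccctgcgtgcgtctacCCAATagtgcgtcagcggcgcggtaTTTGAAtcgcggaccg
Ccnf: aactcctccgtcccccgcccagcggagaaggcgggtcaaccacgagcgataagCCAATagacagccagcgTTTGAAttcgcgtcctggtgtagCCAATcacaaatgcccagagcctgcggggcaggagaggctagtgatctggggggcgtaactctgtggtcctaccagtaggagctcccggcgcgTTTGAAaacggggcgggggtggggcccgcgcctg

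Outside the calgranulin, antigen presentation, collagen and actin genes, the largest rise was 2610528A11Rik, a gene known in the table by its RIKEN identifier. It stood at 1.09, 1.48 and 1.41 in normal, 3.67, 4.49 and 3.98 in lymphedema and 1.72, 2.0 and 3.09 in sham skin, with no overlap among the 3 groups, a 6.59-fold rise over normal (difference 2.72 ± 0.33 SE, limma adjusted p = 0.00383), and it passed in all 6 runs that left out a normal or lymphedema array. An interferon-induced membrane protein, matrix genes and genes of white blood cells were also among the 20 largest rises. Ifitm1 stood at −0.26, −0.28 and −0.52 in normal, 2.07, 2.26 and 1.82 in lymphedema and 0.44, 0.48 and 1.28 in sham skin, with no overlap among the 3 groups, a 5.30-fold rise over normal (difference 2.40 ± 0.237 SE, limma adjusted p = 0.00139). Tnc, the matrix protein tenascin-C of healing wounds, stood at −1.89, −2.11 and −2.0 in normal, −0.02, 0.48 and 1.15 in lymphedema and −1.44, −1.43 and 1.29 in sham skin (difference 2.54 ± 0.595 SE, limma adjusted p = 0.0435). Sham array 3 was as high as the lymphedema arrays while the other 2 lay near normal. Lox, which cross-links collagen and elastin, stood at −1.84, −2.05 and −2.53 in normal and −0.49, −0.58 and −0.33 in lymphedema skin, and −2.0, −1.51 and −0.23 in sham skin (difference 1.67 ± 0.369 SE, limma adjusted p = 0.0367). Cyba, a subunit of the phagocyte oxidase, rose by 1.64 ± 0.363 SE on the log2 scale, Cd53, a tetraspanin of leukocytes, by 1.68 ± 0.354 SE, Srgn, the core of the granule proteoglycan serglycin, by 2.14 ± 0.491 SE, and Ms4a6b by 2.48 ± 0.495 SE. Sham array 3 lay at or near the lymphedema level in all 4, at 0.30 for Cyba, 0.73 for Cd53, 0.93 for Srgn and 1.44 for Ms4a6b, while sham arrays 1 and 2 lay at −0.31 or lower. Lymphedema array 1 had −0.01, 0.33, 0.18 and 0.91 in the same order. None of the 4, nor Tnc or Lox, passed in any run that left out a normal or lymphedema array. These rose beside macrophage and neutrophil markers, of which 7 of 14 and 4 of 7 passed as higher, against 2.83% of all genes. The 4 neutrophil markers were S100a8, S100a9, Lcn2 and Camp, and 3 of them passed within blocks. All 4 are also in the calgranulin, stefin and lipocalin list. No mast cell (5 measured), B cell and plasma cell (3) or T cell (1) marker passed. Of 4 Langerhans and dendritic cell markers 1 passed as higher. The median difference over the 7 neutrophil markers was 0.83, and 0.47 within blocks. The median of their levels went from −1.03, −0.93 and −0.58 to 1.78, 1.91 and 1.39, with sham arrays at −0.08, −0.07 and 1.08. The part of leukocytes in the higher metabolic and ribosomal genes was not tested.

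Features with an empty cell on 1 of the 6 arrays or more gave a further 24 named calls, some in genes such as Irf7 that also passed on complete features. Among features with at least 2 of 3 values in each group 519 passed as higher (1.29%) and 151 as lower (0.376%). Of the 7722 of these with an empty cell on the 6 arrays, 26 passed as higher (0.337%) and 32 as lower (0.414%), 12 of each named by 1 gene. The fit leaves the empty array out. Cxcl5, a chemokine that draws neutrophils, had −0.25 and 0.16 on normal arrays 2 and 3 (array 1 was empty) and 3.87, 3.96 and 3.67 in lymphedema skin, with sham arrays 2 and 3 at 1.42 and 4.76 (difference 3.87 ± 0.672 SE, limma adjusted p = 0.0166). Il1b, interleukin-1 beta, had 0.40 and 0.34 on the same normal arrays, 2.63, 3.20 and 3.88 in lymphedema skin and 4.70 on the only sham array with a value (difference 2.87 ± 0.353 SE, limma adjusted p = 0.00415). Ccl2, the monocyte chemokine, had 0.56, 0.72 and 0.67 in normal skin and 2.86 and 2.59 on lymphedema arrays 1 and 3, with 1.03 and 2.34 on the sham arrays that gave a value (difference 2.08 ± 0.351 SE, limma adjusted p = 0.0144), and another of its clones had 1.09 (0.0902). All 3 are signals between inflammatory cells, and in each the lymphedema arrays lay apart from the normal arrays. The same held for 31.8% of all complete features, which have 3 values per group. Groups lie apart more easily with an empty cell, as in these 3, so that share is not a like measure. Irf1, an interferon-responsive factor, had 0.01, 0.04 and 0.43 in normal skin and 2.06 and 1.85 on lymphedema arrays 1 and 3 (difference 1.79 ± 0.27 SE, limma adjusted p = 0.00863). A further clone of Irf1 passed with 1.21, and others had 0.28 and 0.86. Psmb8, a subunit of the immunoproteasome, had 0.41 and 0.53 against 2.29, 2.53 and 2.75 (difference 2.05 ± 0.344 SE, limma adjusted p = 0.0122), while 7 other clones lay between −0.92 and 1.48. Of these the Psmb8 clone at 1.19 passed as higher (limma adjusted p = 0.0431).

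Among the falls Oxct1, which lets tissues burn ketone bodies, had 1.11 and 1.02 on normal arrays 2 and 3 and −0.63, −1.39 and −1.30 in lymphedema skin (difference −2.17 ± 0.376 SE, limma adjusted p = 0.0137), but 5 other clones of Oxct1 had 0.49 to 1.52. The Oxct1 clone at 1.52 itself passed as higher (limma adjusted p = 0.0231). Klf9, a glucocorticoid-responsive factor of keratinocytes, had 1.49 and 1.4 on normal arrays 1 and 3 and 0.08 and 0.02 on lymphedema arrays 1 and 3 (difference −1.4 ± 0.317 SE, limma adjusted p = 0.0493), while 5 other tested clones of Klf9 had −0.72, −0.63, 0.03, 0.02 and 0.38 and did not pass. Gas2l1, a cytoskeletal linker, had 2.18 and 1.63 and then 0.57, −1.73 and −0.93 (difference −2.60 ± 0.499 SE, limma adjusted p = 0.0235). The largest rise among these features was a clone named Ank1, an ankyrin of red cells, at 5.08 ± 0.733 SE (limma adjusted p = 0.00541), and its other clones had 0.41 and 0.19. Over the 24 genes, 14 had other clones tested, and 20 of these 40 clones had the sign of the called feature. A call from a single incomplete feature is therefore given for the clone and not for the gene.

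**Figure D5:**
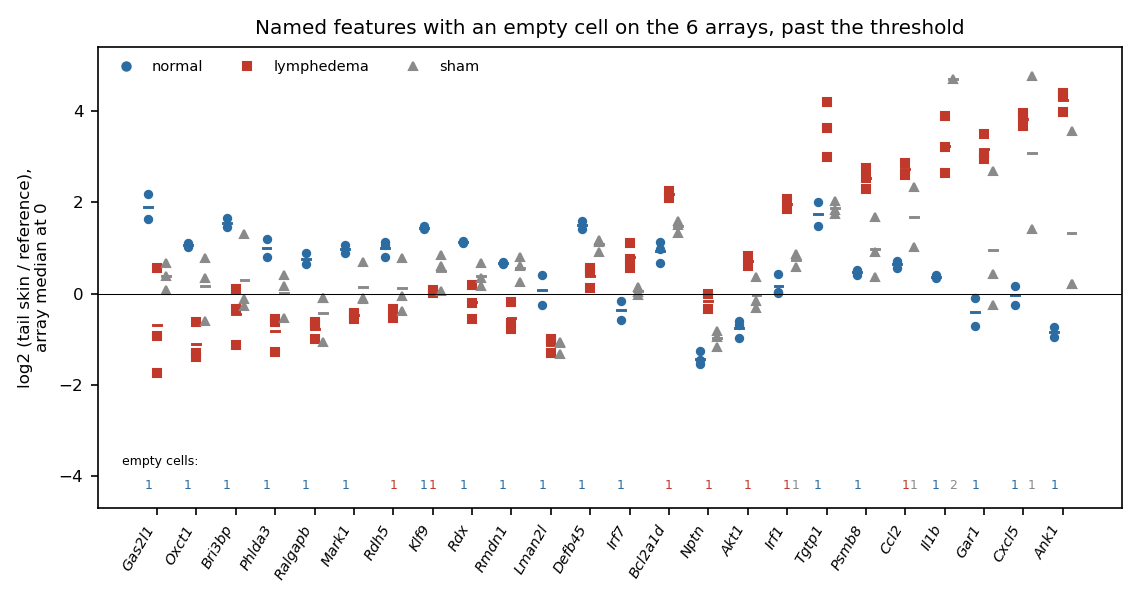
Level (log2 tail skin over reference, array median at 0) of the 24 named features that passed by limma with an empty cell on at least 1 of the 6 arrays, 1 point per array that gave a value and a bar at the mean of each group. The row at the bottom gives the number of empty cells per group in the group's colour; most lie on a normal array, and normal and lymphedema points do not overlap for any of the 24.

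Some features had values on every array of 1 group and on none of the other. There were 90 with values on all normal and no lymphedema arrays, and 18 the other way round. Of the 90, 58 lay in block 31 and 11 in block 32 of the table, and 70 were empty on all sham arrays too. No fold can be given for these, and an empty cell is not a level of 0.

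Leaving out 1 array at a time changed how many genes passed. Without 1 of the 6 normal or lymphedema arrays, 9 (without lymphedema array 2) to 64 (without lymphedema array 3) genes passed as higher and 2 to 12 as lower. Without sham array 3, which also sets the error of the fit, 484 passed as higher and 139 as lower, and without sham array 1 103 as lower. Of the genes called lower only Acoxl and Krtap13 passed in all 6 runs without a normal or lymphedema array, and 35 of the 52 passed in none. Nt5e and Irf7 were among the 9 higher genes that passed in all 6.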

How the data were processed

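Total RNA of distal tail skin was compared with a whole-embryo reference on 2-colour arrays of 42624 spotted cDNA features. Per the study's methods the authors scanned the arrays, read the spots with GenePix and subtracted background and normalized the dyes in Expressionist. The deposited table holds 1 log2 ratio per feature and array; the log base is not stated and was taken as 2. The labels and the methods name opposite dyes for the skin, and the genes typical of embryo and of adult skin set the direction, so the deposited sign was turned. Arrays had 1.34% to 12.6% of cells empty, and their number, 3 pools per group, limits the precision. No depth applies to arrays.

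Each array was centred on its median. Features with all 9 values were named through the platform annotation (20678 features of the table have 1 gene name, 953 several and 20993 none), and a gene is the mean of its features. A group-means model over all 9 arrays was fitted in R 4.3.3 by limma 3.58.1 and moderated by empirical Bayes, 2-sided, Benjamini-Hochberg adjusted over all genes or features, threshold 0.05. Standard errors rest on all 9 arrays. Features with at least 2 values per group were fitted separately. Tables and plots used Python 3.11.15 with pandas 2.3.3. Scripts were tested on simulated data. Values centred within 48 blocks and the division by empty cells were added after the data were seen, and other alternatives are given in the closing section.

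The members, the 74 gene lists and the tests were chosen with earlier results of these data known. Of 2482 listed genes 1591 were measured. Any gene called lower could be named. The 20 largest rises outside the calgranulin, stefin, antigen presentation, collagen, actin and leukocyte marker lists could also be named. So could members of lists that passed, with a few nearest to the threshold or defining, and transcription factors of the lists that passed. The largest changes among incomplete features completed the choice. Only a part of these genes is described in the text. Genes that passed only within blocks were named after their values were seen.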

Additional observations from a re-analysis of the deposited data

How the results depend on the processing

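The number of genes past the threshold depended on the processing more than the differences did. Against 245 higher and 52 lower genes, limma gave 154 higher without centring, 112 with quantile normalization and 140 with 1 clone per gene. It gave 614 and 228 with the normal and lymphedema arrays alone, and 378 and 136 within blocks. Dividing the arrays by the pattern of empty cells sets only lymphedema array 1 against the normal arrays (median standard error 0.311). No gene count is therefore given for that division, and its count over features below has the same limit. Leaving out 1 array at a time gave 9 to 484 higher and 2 to 139 lower genes. Over features, against 707 and 195, quantile normalization gave 427 and 292, no centring 500 and 232, the 2 groups alone 1846 and 768, the pattern of empty cells 3 and 0, values within blocks 1243 and 491, SAM at a 5% false discovery rate 4819 and 766, and left-out arrays 135 to 1451 and 11 to 548. Among features with an empty cell, against 26 and 32, imputed cells gave 60 and 89, and values within blocks 34 and 131. Replicate numbers do not pair the samples, since the deviations of same-numbered normal and lymphedema arrays correlated at −0.189, 0.0273 and −0.247; with the replicate block 116 genes were higher and 29 lower. Of the 140 genes that passed and could be named, 110 also passed without centring, 125 with scaled arrays and 95 with quantile normalization. With the replicate block 73 passed, within blocks 113, and without 1 normal or lymphedema array 11 to 39. Only Skap2 turned, to 0.29 with empty cells imputed. Of the 49 lists 28 had a median above that of all genes, and 28 to 30 under the other scalings. The cause of these shifts was not tested.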

Other observations

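On uncorrected values 2 of 10 blood endothelium markers and 1 of 3 lymphatic endothelium markers passed as higher, against 2.83% of all genes. These calls were lost within blocks. Differences ran from −0.62 to 0.99 in the blood list and from −0.08 to 1.06 in the lymphatic list. Nrp2, a coreceptor of lymphatic growth, had 1.06 (limma adjusted p = 0.0399) and 0.86 within blocks (0.0600), Kdr, the main receptor of VEGF-A, 0.99 (0.0445) and 0.60 (0.223), and endoglin Eng 0.92 (0.0399) and 0.70 (0.0841). On lymphedema array 1 Nrp2 stood at 0.02, Kdr at 0.82 and Eng at 0.49, against −0.82 to −1.73, −0.21 to −0.56 and −0.22 to −0.54 on the normal arrays. Foxc2, a factor of lymphatic valves, had 0.75 and did not pass (0.120).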
